A study of Arabidopsis thaliana with 6 samples.

Results

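The AT2TE07745 group is a set of 6 related Arabidopsis transposable element (TE) copies: AT2TE07745, AT1TE60180, AT3TE69350, AT5TE43385, AT4TE17205 and AT5TE41870. Members were the long-read transcript models that the authors paired with 1 of these 6 TE identifiers. They made up 14 of 829 models and 6 of 344 transcribed loci, a locus being all models whose exons overlap on one strand. The 6 copies had been joined through the similarity of their transcripts in these same data, so their likeness and the fact that each has a model describe the choice and support nothing.

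CACTA elements, also called En/Spm elements after their maize founders, are DNA transposons that move by excision and insertion. They are named for the CACTA bases at their ends, which lie in short inverted repeats flanked by a short duplication of the target site. Full copies encode a transposase and, in maize, a second protein made by alternative splicing, while internally deleted copies keep both ends and can be moved by the proteins of a full copy. In Arabidopsis such elements are normally methylated and silent.

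The RNA came from immature flower buds of Arabidopsis thaliana, ecotype Columbia, and was read as PCR-amplified full-length cDNA on a nanopore device. The libraries were the triple mutant ddm1 rdr6 polV (replicates B and A), the double mutants ddm1 polV and ddm1 rdr6, the single mutant ddm1, and wt. All mutant libraries thus carry the ddm1 mutation, which affects a chromatin remodeler that maintains DNA methylation over TEs. RDR6 copies transcripts into double-stranded RNA, the source of small interfering RNAs. Pol V makes the scaffold transcripts used in RNA-directed DNA methylation. Replicate B had 13 PCR cycles and was the only library of round 2, which per the labels was deeper, whereas all other libraries had 14 cycles and shared round 1. RNA of the mutants was extracted with TriZOL LS and that of wt with TriZOL. The labels give no mutant allele and leave unstated whether the plants behind replicates A and B were separate. Each genotype otherwise had 1 library, so nothing below tests a genotype, and the mutated genes have no value in the files. In bulk tissue, fewer cells with a transcript and less transcript per cell cannot be told apart.

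The CACTA label was compared with the element ends, which lie outside the transcript models, and with protein matches of the models. Because the copies were joined by transcript similarity, matches in several copies are not independent of each other. The longest inverted repeat around the AT2TE07745 models that began with CACTA and had the same 3 bases on either side was 13 bases long. The CACTA start and the equal flanks were conditions of this search, so at AT2TE07745 they are no check of the label. The same 13 bases, without a mismatch, bounded AT1TE60180 and AT3TE69350, each with its own 3-base duplication. The AT2TE07745 element so defined spanned 2312 bp (chr2:1670446-1672757, plus strand), and the AT3TE69350 element spanned 8926 bp (chr3:17106173-17115098, plus strand). AT1TE60180 had 2 exact copies of the 5′ end, both after ACA, which gave 8963 bp (chr1:18154506-18163468, plus strand) or 9009 bp. Exact matches to the 13 bases numbered 146 on both strands of the 5 chromosomes. The element ends are shown because they carry the name of the group. Sequences here are from the RefSeq TAIR10.1 assembly, and capitals mark the 3-base duplication.
AT2TE07745 element start (chr2:1670443-1670465, plus strand): GTTcactacaagaaaacagttaa
AT2TE07745 element end (chr2:1672738-1672760, plus strand): atggcaattttcttgtagtgGTT
AT1TE60180 element start (chr1:18154503-18154525, plus strand): ACAcactacaagaaaactgttaa
AT1TE60180 element end (chr1:18163449-18163471, plus strand): atggcaattttcttgtagtgACA
AT3TE69350 element start (chr3:17106170-17106192, plus strand): ACTcactacaagaaaacagttaa
AT3TE69350 element end (chr3:17115079-17115101, plus strand): atgacaattttcttgtagtgACT

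The other 3 copies, AT5TE43385, AT4TE17205 and AT5TE41870, had a 3′ end at the corresponding place with 1 mismatch each. Counted from 1 at the 5′ base of the 13-base 3′ end (chr2:1672745-1672757) on the transcript strand, the substitutions relative to AT2TE07745 were C5T in AT5TE43385, T12C in AT4TE17205 and G13A in AT5TE41870. No 5′ end with 2 mismatches or fewer was found within 14 kb upstream of the last exon's end in these 3 copies. Capitals here mark the substituted base.
AT5TE43385 element end (chr5:12207534-12207556, plus strand): atggcaattttTttgtagtgtga
AT4TE17205 element end (chr4:3945014-3945036, minus strand): atggcaattttcttgtagCgcaa
AT5TE41870 element end (chr5:11592658-11592680, plus strand): atggcaattttcttgtagtAtat

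A translated search of the spliced models against 9 reference proteins named as En/Spm transposases matched 11 of the 14 member models, at 4 of the 6 copies. The best match at every one was a protein named PttA/En/Spm family plant transposase, at 40.4% identity over 99 residues in AT2TE07745, 41.4% over 99 in AT1TE60180, 40.6% over 101 in AT3TE69350 and 39.8% over 98 in AT5TE43385. Models of AT4TE17205 and AT5TE41870 had no match, nor did the short AT1TE60180 model of ddm1 polV, so for the first 2 copies the label rests on their sequence likeness and a changed 3′ end. Of all 829 models 54 matched, at 30 of 344 loci. No protein of another name was searched, so the family name of every match was set in advance. The matches therefore do not tell En/Spm from other families. The annotation calls every overlapping feature a pseudogene on the same strand: AT2G04770 at AT2TE07745, AT1G49070, AT1G49080 and AT1G49090 at AT1TE60180, AT3G46487 at AT3TE69350, AT5G32566 at AT5TE43385, AT4G06698 at AT4TE17205 and AT5G30480 at AT5TE41870.

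Every member copy had a model in ddm1 rdr6 polV replicate B, against 97.1% of all loci. Only AT2TE07745 had one in replicate A, where 23.3% of all loci had one. AT2TE07745 and AT1TE60180 had one in ddm1 polV, against 36.9% of loci, and AT2TE07745 alone had one in ddm1 rdr6, against 26.7%. No member had a model in ddm1 or in wt, where 12.8% and 1.74% of loci had one. The 4 copies seen in replicate B alone compare with 54.1% of all loci. The files list only clusters of at least 10 reads, so a copy without a model may still have had reads.

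Cluster reads, taken from the number at the end of each model name, were concentrated in 1 copy. AT2TE07745 had 257 reads in replicate B (exact Poisson 95% interval 227 to 290), 34 in replicate A, 27 in ddm1 polV and 28 in ddm1 rdr6. Its 3 round 1 libraries lay close together, with intervals of 23.5 to 47.5 for replicate A, 17.8 to 39.3 for ddm1 polV and 18.6 to 40.5 for ddm1 rdr6. The remaining 5 copies lay at or just above the 10-read minimum wherever they were seen. AT1TE60180 had 10 reads in replicate B and 15 in ddm1 polV. In replicate B, AT5TE43385 had 15 reads, AT3TE69350 had 11, and AT4TE17205 and AT5TE41870 had 10 each. Counting intervals here and below cover counting error only, since PCR reads without molecular identifiers are not independent molecules.

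**Figure D1:**
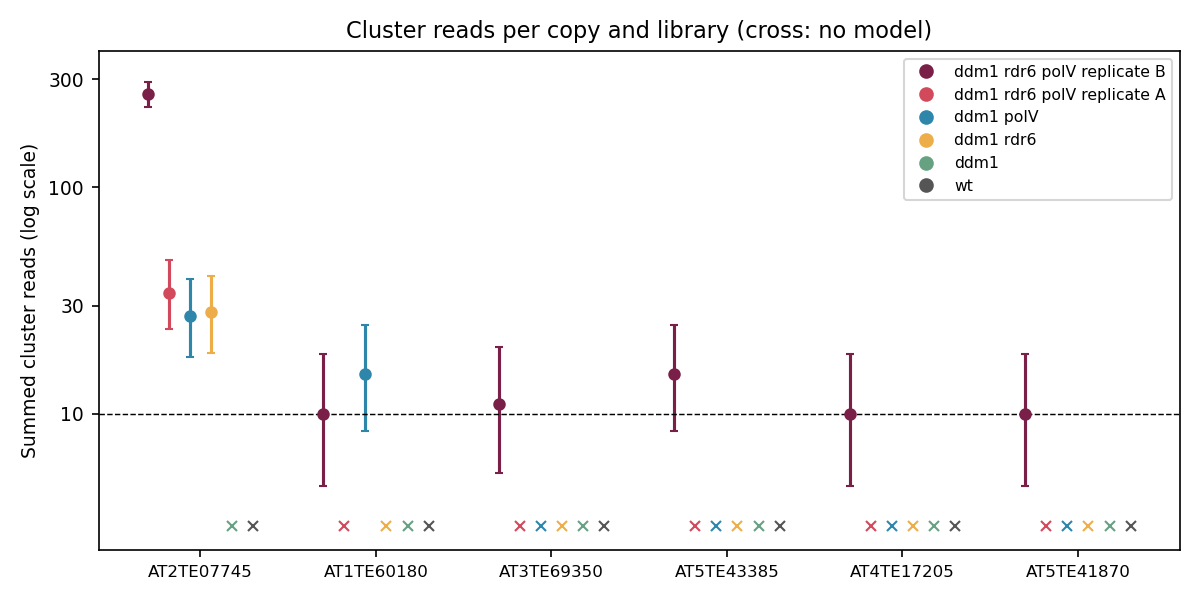
Cluster reads per copy (horizontal axis) in each library (colours) on a log scale, with exact Poisson 95% intervals. Crosses mark libraries with no model and have no value, and the dashed line is the 10-read minimum. AT2TE07745 stood at 257 reads in replicate B and between 27 and 34 in 3 round 1 libraries, while the other 5 copies had 10 to 15 reads in 1 or 2 libraries.

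Library totals are not in the files, so the only available scale was the sum of cluster reads over all TE models, 17106 in replicate B, 2317 in replicate A, 4303 in ddm1 polV, 3128 in ddm1 rdr6, 1212 in ddm1 and 136 in wt. On that scale AT2TE07745 held 1.50% of TE reads in replicate B (exact Clopper-Pearson 95% interval 1.33 to 1.70) and 1.47% in replicate A (1.02 to 2.04). It held 0.627% in ddm1 polV (0.414 to 0.912) and 0.895% in ddm1 rdr6 (0.596 to 1.29). The 2 triple mutant libraries had nearly the same share, but of unlike sums, over 334 loci in replicate B and 80 in replicate A. The near-equal shares therefore do not show that the replicates agree. The intervals of both replicates did not overlap that of ddm1 polV. The interval of ddm1 rdr6 overlapped that of replicate A and ended below that of replicate B. These intervals compare libraries, and the set of TE loci that makes up the denominator also differs between them.

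**Figure D2:**
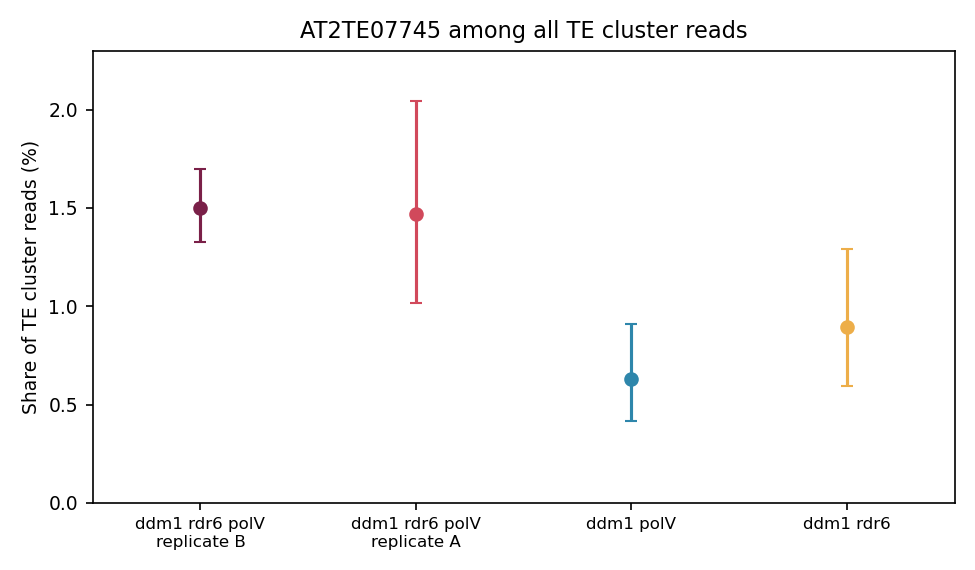
Share of all TE cluster reads at AT2TE07745 (vertical axis, percent) in the 4 libraries with a model, with exact Clopper-Pearson 95% intervals. Replicates B and A lie at 1.50% and 1.47%, ddm1 rdr6 at 0.895% and ddm1 polV at 0.627%.

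Among all loci AT2TE07745 ranked 14 by reads in replicate B, 20 in replicate A, 42 in ddm1 polV and 33 in ddm1 rdr6. Its log2 ratio of replicate B over replicate A was 2.92, against a median of 2.17 (quartiles 1.33 and 2.69) over the 80 loci with a model in both, where it ranked 11 from the top. The 6 copies together held 1.83% of TE reads in replicate B (1.63 to 2.04), 1.47% in replicate A (1.02 to 2.04), 0.976% in ddm1 polV (0.704 to 1.32) and 0.895% in ddm1 rdr6 (0.596 to 1.29).

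The 10-read minimum limits what a missing model says. The values below were scaled by the sum of TE cluster reads, which differs between libraries and is not sequencing depth. Depth and genotype therefore cannot be told apart here. At the TE read shares of the 3 round 1 libraries with a model, AT2TE07745 would have had 17.8 (replicate A), 7.60 (ddm1 polV) or 10.8 (ddm1 rdr6) reads in ddm1, on either side of the 10-read minimum, and 0.853 to 2.00 reads in wt. At their shares in replicate B, the other 5 copies would have had 1.35 to 3.77 reads in replicate A, ddm1 polV and ddm1 rdr6. Those values lie below the 10-read minimum, so a missing model of these copies there does not show that they were absent. AT1TE60180 in ddm1 polV was the exception. Its share of TE reads was 0.0585% in replicate B (0.0280 to 0.107) and 0.349% in ddm1 polV (0.195 to 0.574). At the ddm1 polV share, its short model would have had 59.6 reads in replicate B, where no such model was listed. The cause of this difference was not tested. The short model lay inside the last exon, where AT1TE60180 and AT2TE07745 were 98.9% identical, so the placement of its reads is uncertain.

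The loci with read profiles most like that of AT2TE07745 were ranked by the mean absolute difference of log2(reads + 1) over the 5 mutant libraries. They were AT2TE07145 (0.22), AT5TE39850 (0.46) and AT3TE24460 (0.47). AT2TE07145 had 286 reads in replicate B, 59 in replicate A, 28 in ddm1 polV and 26 in ddm1 rdr6, and like AT2TE07745 no model in ddm1 or wt. The lead copies of the other 2 CACTA-like sequence groups had fewer reads than AT2TE07745 in each library with a model, except AT1TE42225 in replicate A. AT1TE42225 had 69 in replicate B, 36 in replicate A and 10 in ddm1 polV. AT2TE22040 had 57 in replicate B, 22 in ddm1 polV and 24 in ddm1 rdr6. Summed by group, AT1TE42225 (21 loci) had 412, 36, 74 and 43 reads in replicate B, replicate A, ddm1 polV and ddm1 rdr6. AT2TE22040 (9 loci) had 296, 14, 68 and 35 in the same order, and the AT2TE07745 group (6 loci) had 313, 34, 42 and 28. Unlike AT2TE07745, the locus AT2TE19610 also had a model in ddm1, with 842 reads in replicate B, 137 in replicate A, 272 in ddm1 polV, 49 in ddm1 rdr6 and 26 in ddm1.

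Spliced models were found at 4 of the 6 copies, against 56.1% of all loci with a multi-exon model. Of the 14 member models 11 had more than 1 exon, against 454 of all 829 (54.8%). Spliced lengths ran from 501 to 2166 nt with a median of 1027.5 nt, against 693 nt over all models. Because 8 of the 14 models belonged to AT2TE07745, both figures mostly describe that copy.

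AT2TE07745 (chr2:1671014-1672368, plus strand) was spliced in all 8 of its models, which were 939 to 1274 nt long and all began at the same base. Its main form had 3 exons of 265, 224 and up to 539 nt, introns of 129 and 81 nt, and was listed in all 4 libraries with a model. AT1TE60180 (chr1:18159635-18162857, plus strand) had a 5-exon model of 2011 nt in replicate B, with introns of 962, 80, 87 and 81 nt, and a single-exon model of 501 nt in ddm1 polV. AT3TE69350 (chr3:17113065-17114488, plus strand) had a 4-exon model of 1176 nt, with introns of 80, 87 and 81 nt. AT5TE43385 (chr5:12204633-12207046, plus strand) had a 4-exon model of 2166 nt, with introns of 81, 86 and 81 nt. AT4TE17205 (chr4:3945563-3946083, minus strand) and AT5TE41870 (chr5:11591639-11592162, plus strand) had single-exon models of 521 and 524 nt.

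**Figure D3:**
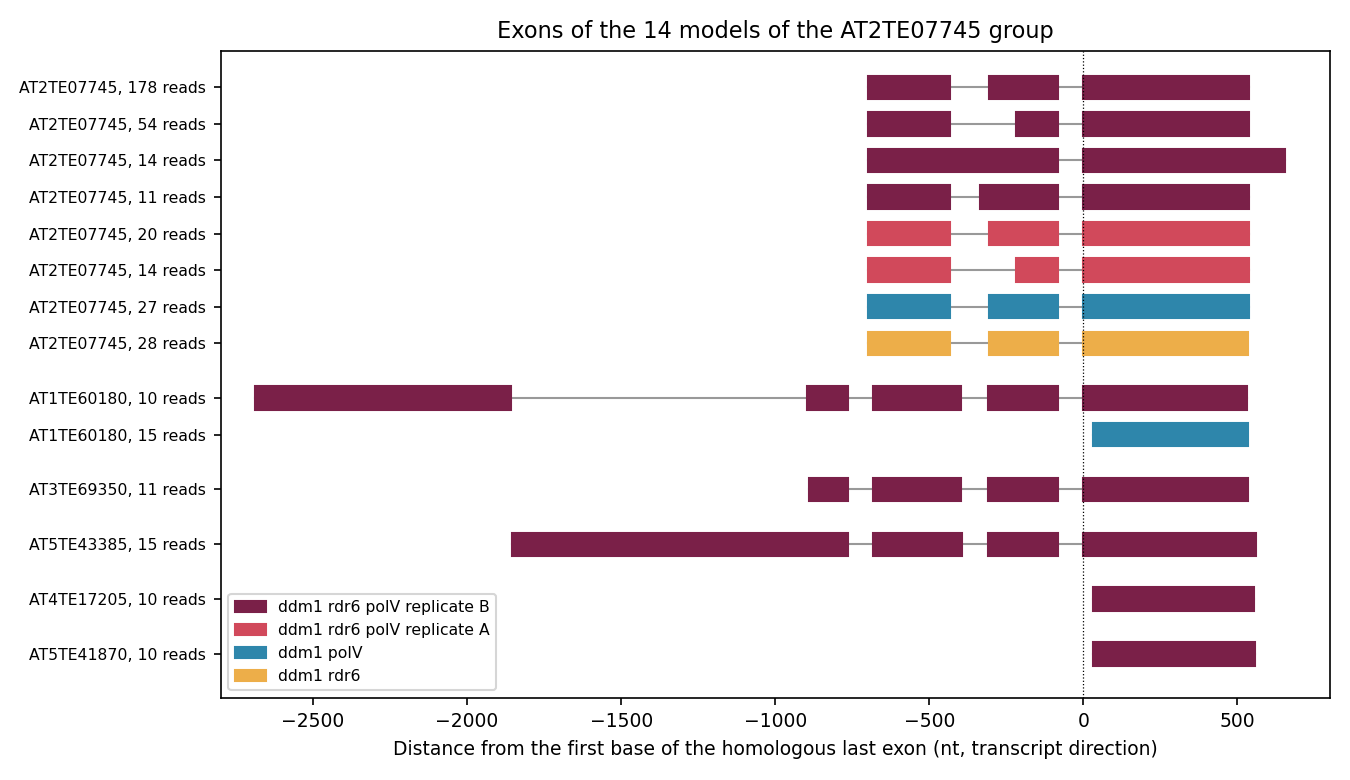
Exons (boxes) and introns (lines) of the 14 models, placed by distance in nt from the first base of the homologous last exon, with library by colour and cluster reads beside each name. All spliced models share that last exon, and the 3 single-exon models begin 33 nt inside it.

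The spliced copies shared their 3′ part. The last intron was 81 nt in every spliced model and the exon before it was 228 nt in AT1TE60180, AT3TE69350 and AT5TE43385. A further exon of 288 nt preceded it in the same 3 copies. All introns of member models were GT-AG except the second of AT3TE69350, which was GC-AG. The donors of the corresponding intron in the 3 copies follow, with its first 2 bases in capitals.
AT1TE60180 donor (chr1:18161918-18161937, plus strand): ggacgaattgGTaagtcttc
AT3TE69350 donor (chr3:17113549-17113568, plus strand): ggacgaattgGCaagtcttc
AT5TE43385 donor (chr5:12206083-12206102, plus strand): agacgaattgGTaagtcttc

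The 3 single-exon models lay inside the homologous last exon. In AT1TE60180, AT4TE17205 and AT5TE41870 they began 33 nt after that exon's first base, although the 3 came from 2 libraries and 3 chromosomes. The 30 bases around this start were the same in the 3 copies: cgttccttatGGAGTAGGAAGCCTCAAAGA, where capitals mark the first bases of the models. No single-exon model therefore reached the last intron, and none shows whether its transcript was spliced. Both copies with only a single-exon model still carried that intron's sequence with GT and AG at its ends. The intron is shown for AT2TE07745 and for both copies with only a single-exon model. It has 6 exon bases on either side and the splice site bases in capitals.
AT2TE07745 last intron (chr2:1671626-1671718, plus strand): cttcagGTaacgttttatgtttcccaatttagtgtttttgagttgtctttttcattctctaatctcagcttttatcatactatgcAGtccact
AT4TE17205 last intron (chr4:3946111-3946203, minus strand): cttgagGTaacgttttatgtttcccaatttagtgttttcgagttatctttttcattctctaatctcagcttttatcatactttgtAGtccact
AT5TE41870 last intron (chr5:11591519-11591611, plus strand): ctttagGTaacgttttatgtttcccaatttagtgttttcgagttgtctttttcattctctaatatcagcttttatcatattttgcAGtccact

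Counted from 1 at the intron's first base (chr2:1671632 in AT2TE07745), the 4 differences of AT4TE17205 from AT2TE07745 were T33C, G39A, A76T and C79T. Those of AT5TE41870 were T33C, C58A, C74T and A76T. The spliced copies AT1TE60180 and AT3TE69350 differed from AT2TE07745 at T49G, and AT5TE43385 at G6A. Whether any of these bears on splicing was not tested.

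The 3′ ends were also alike. The hexamer AATAAA, the plant near-upstream polyadenylation signal in its canonical form, stood in the last 50 nt of 13 of the 14 member models on the transcript strand, 13 to 21 nt before their end counted from its first base. Over all 829 models 132 (15.9%) held it in the same window. The exception was the AT2TE07745 model that kept intron 1, which ended further downstream, at 1672368. Because 8 of the 14 models belonged to AT2TE07745 and all copies share the last exon, the member models are not independent. Their count is therefore no measure of enrichment over all models. The 30 bases around the end are shown for AT2TE07745 and AT4TE17205, with the hexamer in capitals.
AT2TE07745 3′ end (chr2:1672227-1672256, plus strand): tgacAATAAAtttgttttcatgcttcttgt
AT4TE17205 3′ end (chr4:3945558-3945587, minus strand): ttttgaaatgacAATAAAtttgttttcatg

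AT2TE07745 was the only member with several spliced forms in one library. The forms differed at intron 1, which had a single donor after position 1671278 and 3 acceptors. In replicate B the 224-nt exon 2, starting at 1671408, had 178 of 257 reads (69.3%, exact Clopper-Pearson 95% interval 63.2 to 74.8). The 137-nt exon 2, starting at 1671495, had 54 (21.0%, 16.2 to 26.5). The 254-nt exon 2, starting at 1671378, had 11 (4.28%, 2.16 to 7.53), and 14 reads kept intron 1 (5.45%, 3.01 to 8.97). In replicate A, 20 of 34 reads (58.8%, 40.7 to 75.4) had the 224-nt exon and 14 (41.2%, 24.6 to 59.3) the 137-nt exon. The intervals of the 137-nt form overlapped between the replicates. All 27 reads in ddm1 polV and all 28 in ddm1 rdr6 were in models with the 224-nt exon. At its replicate B share the 137-nt form would have had 5.67 reads in ddm1 polV and 5.88 in ddm1 rdr6, and at its replicate A share 11.1 and 11.5 reads. These values lie on either side of the 10-read minimum, so a missing model of this form in the double mutants does not show a lower share there.

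The donor and the 3 acceptors are shown in order along the gene, with the intron's first or last 2 bases in capitals.
AT2TE07745 intron 1 donor (chr2:1671271-1671290, plus strand): ttgtcgagGTaaattccact
AT2TE07745 acceptor of the 254-nt exon (chr2:1671366-1671385, plus strand): gatttatgccAGattattat
AT2TE07745 acceptor of the 224-nt exon (chr2:1671396-1671415, plus strand): tgcatggggaAGagcaattg
AT2TE07745 acceptor of the 137-nt exon (chr2:1671483-1671502, plus strand): atcgaaagacAGagaagatt

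**Figure D4:**
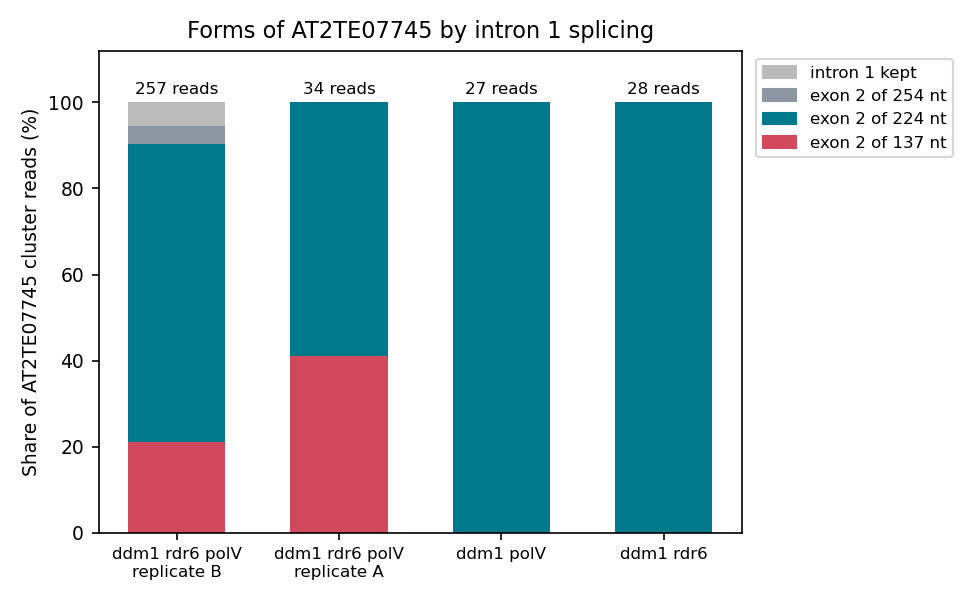
Share of AT2TE07745 cluster reads (vertical axis, percent) in models with each exon 2 or with intron 1 kept, by library, with the reads of the locus above each bar. Replicate B shows 4 forms, replicate A 2, and ddm1 polV and ddm1 rdr6 only the 224-nt exon 2.

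The acceptors stood 30 and 87 nt apart, both multiples of 3. The longest ATG-to-stop reading frame began at nt 103 of every AT2TE07745 model. It was 249 codons long with the 224-nt exon, 220 with the 137-nt exon, 259 with the 254-nt exon and 292 with intron 1 kept. The frame of the 5-exon AT1TE60180 model was 523 codons, that of AT3TE69350 268 codons, and that of AT5TE43385 113 codons, although the last had the longest transcript. The 3 single-exon models had frames of 39 codons. These lengths come from the reference sequence, and no protein was measured.

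The AT2TE07745 element matched both outer parts of the longer elements. Bases 1 to 963 of its element matched bases 1 to 938 of the AT1TE60180 element at 93.1% identity, and bases 958 to 2110 matched bases 7509 to 8662 at 97.8%. In the AT3TE69350 element the first match covered only bases 134 to 963 of AT2TE07745, at 96.2%, and the second bases 958 to 2110, at 97.7%. A further match, overlapping the second, covered bases 1982 to 2312 of AT2TE07745, up to its 3′ end. It lay at bases 8633 to 8963 of the AT1TE60180 element (95.5%) and 8596 to 8926 of the AT3TE69350 element (94.0%). Between the first and second matches the AT1TE60180 element held 6570 bp and the AT3TE69350 element 6563 bp that the AT2TE07745 element lacks. The first and second matches covered the same 6 bases of AT2TE07745, shown in capitals at the junction and at the 2 corresponding places of AT1TE60180.
AT2TE07745 junction (chr2:1671373-1671438, plus strand): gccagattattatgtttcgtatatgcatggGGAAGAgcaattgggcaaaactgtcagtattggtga
AT1TE60180 end of first match (chr1:18155408-18155473, plus strand): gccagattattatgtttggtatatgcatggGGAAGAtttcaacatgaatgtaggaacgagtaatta
AT1TE60180 start of second match (chr1:18161984-18162049, plus strand): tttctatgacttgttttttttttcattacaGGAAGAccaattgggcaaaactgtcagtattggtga

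**Figure D5:**
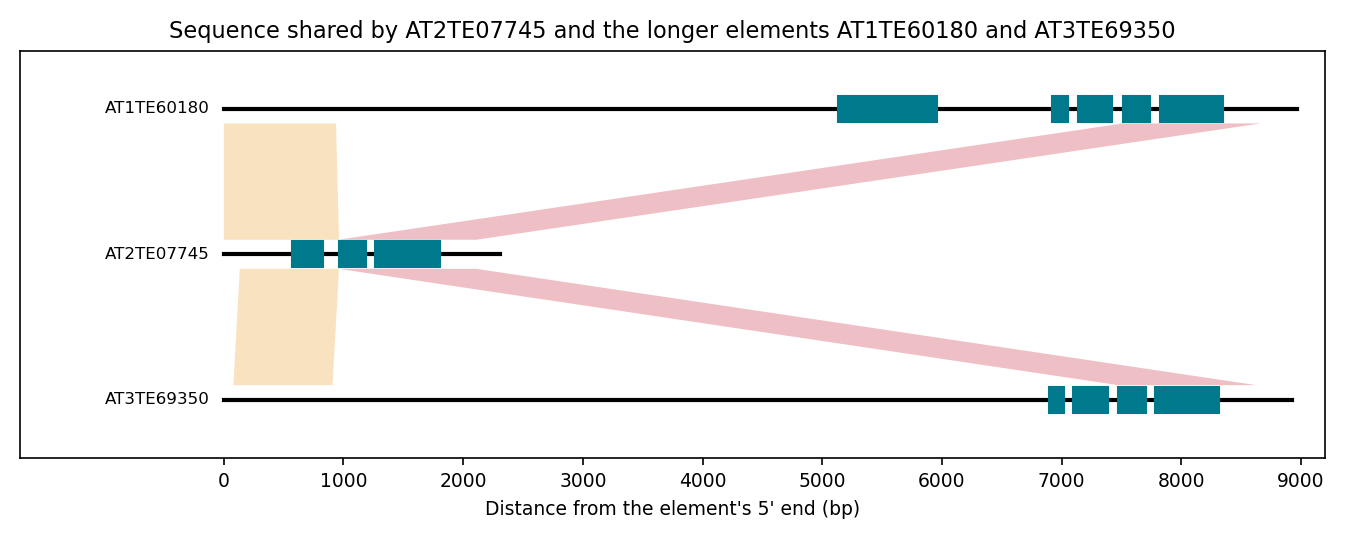
The elements AT1TE60180 (top), AT2TE07745 (middle) and AT3TE69350 (bottom) by distance from their 5′ end in bp, with the exons of the model with most exons as boxes. Shaded areas join matching sequence: bases 1 to 963 of AT2TE07745 match the 5′ part of AT1TE60180, bases 134 to 963 match that of AT3TE69350, and bases 958 to 2110 match the 3′ parts of both, with 6570 and 6563 bp between. The further match at the 3′ end is not drawn.

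The main splice acceptor of AT2TE07745 lay in these 6 shared bases. Its exon 2 began at 1671408, the last of them, 4 nt downstream of 1671404, the base that corresponds to the start of the 228-nt exon in AT1TE60180 and AT3TE69350. The acceptor of the 254-nt exon lay on the first side of the junction and that of the 137-nt exon on the second side. Exon 1 of AT2TE07745, 568 bp after the element's start, lay whole in the 5′ match. The genome held 6 copies of exon 1 over at least 80% of its length, and AT2TE07745 was the only one with a model. The copies in the longer elements were 97.0% identical in AT1TE60180 and in AT3TE69350 and 96.6% upstream of AT5TE43385. They lay 4588, 6379 and 4489 bp before the first model of these copies. The models of these copies, in clusters of at least 10 reads, thus all began downstream of their exon 1 sequence. A model's first base need not be where its transcript started, so whether the start sites differ from that of AT2TE07745 was not tested.

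Arm and centromere-near copies were told apart by gene density, centromere-near being a 500-kb bin with less than 40% of its bases in protein-coding genes. AT1TE60180 (59.4%) and AT3TE69350 (55.6%) lay in chromosome arms. AT5TE43385 (3.61%), AT4TE17205 (2.99%) and AT5TE41870 (2.12%) lay in gene-poor sequence near the centromere. AT2TE07745 (32.7%) counted as centromere-near under this limit, but as an arm copy with a limit of 30% or with 250-kb bins. Of all 344 loci 264 (76.7%) were centromere-near. The nearest protein-coding genes were 995 bp from AT3TE69350 (AT3G46490), 3271 bp from AT1TE60180 (AT1G49100) and 4349 bp from AT2TE07745 (FLA7, which encodes a fasciclin-like arabinogalactan protein). They were 14543 bp or more from the other 3 copies.

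Both arm copies were spliced, as was AT2TE07745. Of the 3 copies in gene-poor bins, AT5TE43385 had a spliced model, and AT4TE17205 and AT5TE41870 had only single-exon models. Those single-exon models lay inside the last exon, so they do not show whether the transcripts were spliced. The arm copy AT1TE60180 also gave a single-exon model. With 6 copies, and 10 to 15 reads behind each model outside AT2TE07745, no difference between the positions was tested.

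In the last exon, which all 6 copies share, AT2TE07745, AT1TE60180 and AT3TE69350 were 98.3% to 99.1% identical to each other. AT5TE43385, AT4TE17205 and AT5TE41870 were 95.7% to 96.8% identical to each other. Between the 2 sets, which also differ in having exact or changed ends, identity was 93.1% to 94.0%. Values of AT1TE60180 and AT3TE69350, whose spliced models were 99.2% identical, are uncertain where reads could align to either copy. The same holds between these copies and AT2TE07745 for reads that lie in the last exon alone.

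The genome held 13 copies of the last exon over at least 80% of its length, and the 6 members were the only ones with a model. Both copies in arm bins and 4 of 11 in centromere-near bins had one. Of the 7 copies without a model, 4 were over 90% identical to AT2TE07745, the closest at 93.6%, the same as AT4TE17205. Since members were defined by having a model, these counts describe the set and are not a test of position.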

How the data were processed

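Per the labels' protocols, poly(A) RNA of flower buds (stages 1 to 12, 50 ng per library) was made into PCR-cDNA and sequenced on a MinION. The authors deposited transcript models with exon coordinates and a list pairing models with TE identifiers. The submitters' processing notes name minimap2 and TAIR10, and the file headers name pinfish. Their versions, like the cluster settings, were not given in the sources used here. The whole number of at least 10 that ends each deposited model name was read as cluster reads, which the files do not state.

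Models overlapping by 1 bp or more on one strand were merged into loci. The reference was TAIR10.1, and 1042 of 1052 introns (99.0%) were GT-AG on it at the deposited coordinates. BLAST+ 2.17.0 (e-value 1e-05 for proteins, 1e-10 for exons), Biopython 1.88, pysam 0.24.0, scipy 1.17.1 and numpy 2.4.6 were used, and locus merging and intervals were checked on simulated data. All 14 models, the 3 most similar loci and 3 preset comparison loci were named. The members and lists were chosen with earlier results of these data known. Library totals are unknown, 4 libraries were unreplicated, and no p-values were computed.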

Additional observations from a re-analysis of the deposited data

How the results depend on the processing

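No paired analysis was possible because only ddm1 rdr6 polV had more than 1 library and no result came from a test. With models of 20 or more reads only, 1 copy remained over all libraries, 1 in replicate B and 1 in ddm1 polV. Models then numbered 5 in all, 2 in replicate B, 1 in replicate A and 1 in ddm1 polV, reads fell to 20 in replicate A and 27 in ddm1 polV, and 1 copy was spliced, since only AT2TE07745 has such models. Given as a share of models instead of reads, the members made up 2.08% in replicate B, 2.20% in replicate A and 1.38% in ddm1 polV. Centred on the median of shared loci, the log2 ratio of replicate B over replicate A at AT2TE07745 was 0.75. Leaving out either triple mutant library gave 2 to 6 copies, 5 to 12 models, 104 to 383 reads, 0.937% to 1.48% of TE reads, 1 to 4 spliced copies and a median length of 1023 to 1027.5 nt. The low values of all ranges came without replicate B, the deepest library. When a copy counted as spliced only if spliced models held most of its reads, 3 copies did. Comparing the last exon alone, and taking models by identifier without merging, were alternatives chosen after seeing the data; these and the other alternatives moved no value beyond its counting error or 1.5 times. The 10-read minimum limits every absence: copies and forms under 10 reads are not listed.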
